A study of Mus musculus with 40 samples.

Results

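At 1 week after the injection of Lewis lung carcinoma (LLC) cells, 3 of 8 female mice, C15, C17 and C18, were picked for high levels of macrophage and extracellular matrix genes in the gastrocnemius, and they are described here against the other 5 mice of that group, C13, C14, C16, C19 and C20. The 3 mice were 3 of 40 in the series. They were selected on their own measured levels of these genes, marked by Spp1, Lgals3 and Adam12, and not by any label. By this choice macrophage genes were high in all 3 mice, whereas for some lists of matrix genes C14 or C16 reached the level of C15 or C18. Every gene of these 8 libraries therefore took part in the choice, and differences between the 3 and the 5 mice are given as values, with no test and no p. Tests are given only for mice of the other groups, whose levels did not define the 3 mice, and for the 1-week group as a whole. For the latter, counts without some of its mice are added as a description. Members and gene lists were chosen with earlier results of these data known, so tests in the other groups are not fully independent of the choice.

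Macrophages clear debris in injured muscle and signal to the satellite cells, the stem cells of muscle fibres, and to the fibro-adipogenic progenitors, the main source of muscle collagen. Spp1 encodes osteopontin, a secreted protein of macrophages and injured tissue that binds integrins. Lgals3 encodes galectin-3, a sugar-binding lectin abundant in phagocytes, and Adam12 encodes a metalloprotease found in regenerating fibres and activated mesenchymal cells. In bulk RNA, more cells of a type and more RNA per cell cannot be told apart.

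All mice were female C57BL6/J, with 8 mice and 1 library per mouse in each of 5 groups. Mice of the 1wk group, C15, C17 and C18 among them, had carried LLC, a transplantable mouse lung tumor line, for 1 week and were 9 weeks old. PBS mice had received saline in place of tumor cells and were 12 weeks old. 2wk mice were 10 weeks old at 2 weeks after LLC injection. The LLC mice taken last, at 11 to 12 weeks of age, form the LT group where the tumor weighed up to 1.2 g and the HT group where it weighed 2 g or more. No tumor-free mice of 9 weeks were sequenced, so age and tumor cannot be told apart between 1wk and PBS. LLC is a transplanted line, and the gastrocnemius is a mixed muscle that also holds vessels, nerve, fat and connective tissue.

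The values are normalized read counts, that is, estimated counts per gene that the authors had scaled for library depth. Estimated depth was 19.4 to 26.7 M (mega) reads in the 1wk libraries, among them 25.2 M in C15, 22.4 M in C17 and 23.5 M in C18. It was 19.3 to 28.6 M in PBS, 15.7 to 23.01 M in 2wk, 3.49 to 7.24 M in LT and 4.16 to 7.76 M in HT libraries, and genes with few reads are measured with less precision in those last groups. Differences are on the log2(value + 1) scale, where 1 is a doubling, and this scale understates changes of genes with low values. Acta1, the skeletal muscle actin, was 205823 to 330855 in the 3 mice and 285751 to 367297 in the other 5, so skeletal muscle RNA was abundant in every 1wk library.

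Of the 3 genes that mark these mice, only Lgals3 separated them from the other 5. Its level was 433.8 in C15, 2144 in C17 and 357.1 in C18, and in the other mice it was 59.5 in C13, 65.4 in C14, 172.6 in C16, 59.6 in C19 and 73.8 in C20. C17 was highest by far, and C16 was the nearest of the others. Spp1 was 533.9 in C15, 3058 in C17 and 47.04 in C18, against 34.02 in C13, 40.1 in C14, 727.7 in C16, 14.1 in C19 and 15.1 in C20. The groups overlapped, because C16 was above C15 and C18. Adam12 was 38.4 in C15, 178.5 in C17 and 9.10 in C18, against 10.1 in C13, 6.33 in C14, 14.9 in C16, 6.70 in C19 and 3.79 in C20. C18 thus lay among the other mice for both Spp1 and Adam12, and its membership rests on other genes. In the remaining groups Spp1 reached at most 122.5 (an HT mouse), Adam12 at most 26.98 (an LT mouse) and Lgals3 at most 181.1 (an HT mouse).

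**Figure D1:**
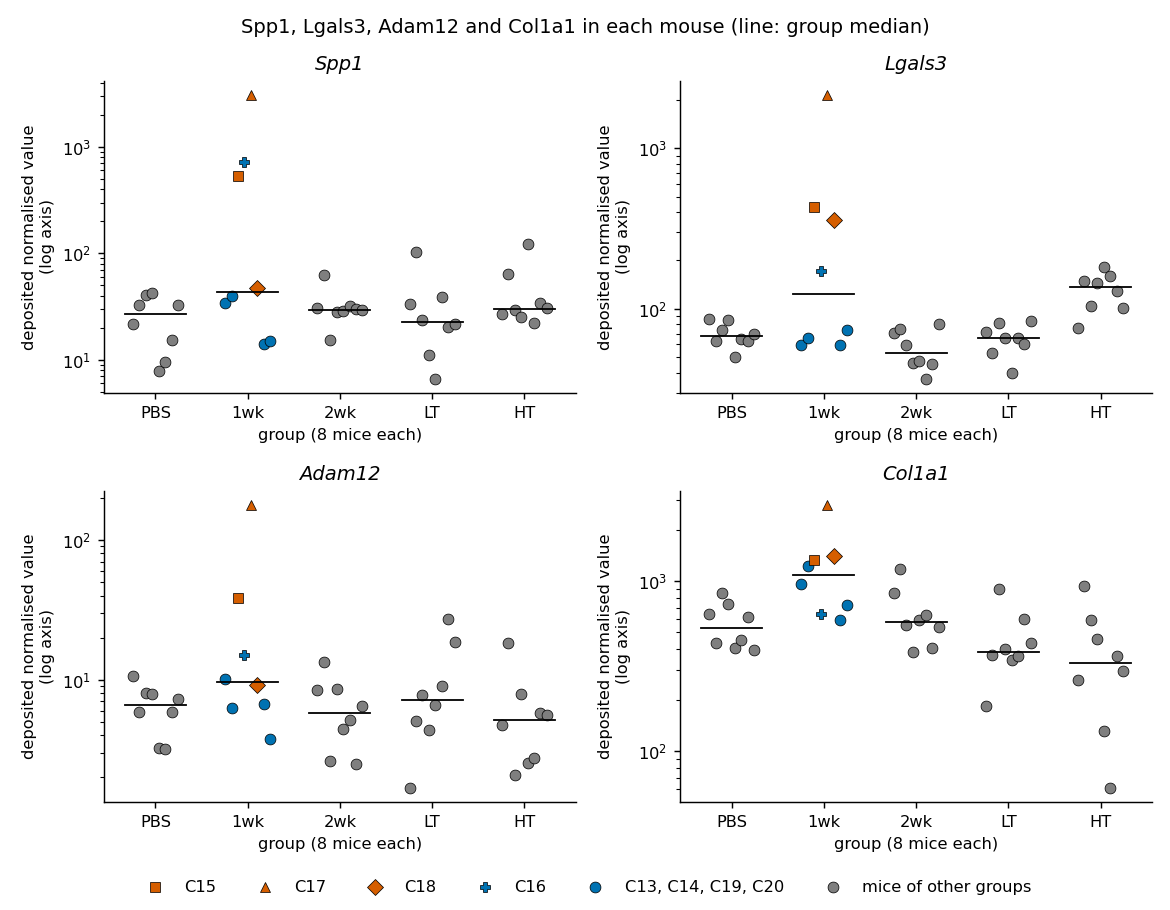
Normalized values of Spp1, Lgals3, Adam12 and Col1a1 in each of the 40 mice on log axes, by group, with a line at the group median. C15, C17 and C18 are orange and the other 1wk mice blue: only for Lgals3 and Col1a1 are all 3 above all 5, and C16 is among the highest for Spp1.

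The 250 bases before the transcription start are shown for 3 of the genes that separated the mice, Cd68, C3ar1 and Clec12a, and for the marking gene Spp1, because each holds a site-like match for factors known from macrophages. AP-1 is a dimer of Fos and Jun proteins, and PU.1, encoded by Spi1, is an ETS factor of the myeloid lineage. Capitals mark TGANTCA (AP-1), GAGGAAG (PU.1/ETS) or CAGCTG (the E-box of myogenic factors), searched on both strands. N stands for any base, so the AP-1 pattern is a loose one. The match reads TGAGTCA in Cd68, TGACTCA in C3ar1 and TGAATCA in Clec12a. Sequences are from RefSeq, build GRCm38.p6, 5′ to 3′ on the strand of the gene, at chr11:69666171-69666420 (Cd68, minus strand), chr6:122856158-122856407 (C3ar1, minus strand), chr6:129349994-129350243 (Clec12a, plus strand) and chr5:104434861-104435110 (Spp1, plus strand). Each of the 4 windows was found 1 time on its chromosome in GRCm39, directly before the gene as placed in the deposited table. RefSeq gives Spp1 a second start, and the 250 bases before it hold 0 of the 3 motifs.
Cd68: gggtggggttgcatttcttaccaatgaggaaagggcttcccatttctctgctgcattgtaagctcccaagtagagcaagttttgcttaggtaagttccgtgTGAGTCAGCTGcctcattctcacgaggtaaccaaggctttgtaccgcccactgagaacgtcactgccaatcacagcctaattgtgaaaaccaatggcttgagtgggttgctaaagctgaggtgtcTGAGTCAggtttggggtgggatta
C3ar1: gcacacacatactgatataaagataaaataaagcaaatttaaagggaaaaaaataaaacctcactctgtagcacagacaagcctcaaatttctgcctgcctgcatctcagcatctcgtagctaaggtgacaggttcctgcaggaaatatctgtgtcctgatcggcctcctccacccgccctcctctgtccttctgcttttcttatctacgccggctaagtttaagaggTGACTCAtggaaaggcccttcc
Clec12a: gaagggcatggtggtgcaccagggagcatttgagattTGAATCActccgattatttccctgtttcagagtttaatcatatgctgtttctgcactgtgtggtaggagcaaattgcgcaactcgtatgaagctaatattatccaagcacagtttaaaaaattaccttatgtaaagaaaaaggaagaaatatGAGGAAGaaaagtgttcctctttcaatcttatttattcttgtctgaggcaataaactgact
Spp1: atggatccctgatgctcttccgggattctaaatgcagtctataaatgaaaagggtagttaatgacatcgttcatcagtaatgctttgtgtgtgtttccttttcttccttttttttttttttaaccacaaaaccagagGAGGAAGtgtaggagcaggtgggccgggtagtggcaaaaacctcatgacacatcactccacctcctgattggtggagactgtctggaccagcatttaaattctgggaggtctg
Cd68 holds 2 AP-1 matches, the first of which overlaps an E-box, and C3ar1 holds 1 AP-1 match 16 to 22 bases before the start. A match of letters is a description and shows no binding.

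Across the table of 12573 genes, 790 (6.28%) were higher in all 3 mice than in all 5 others and 696 (5.54%) were lower in all 3. With a difference of at least 2-fold and a mean value of at least 10 over the 40 mice, 213 genes of 12378 were higher (1.72%) and 40 were lower (0.323%). Without C17 97 genes were higher and 31 lower, and without C18 440 were higher and 85 lower. Leaving out 1 of the 3 mice also eases the rule that all of them lie beyond all 5 others. The genes of the first count that stayed at least 2-fold apart without C17 are called leading here, and they were 88 higher and 26 lower genes. Just inside this limit was Itgb2, a leukocyte integrin chain, with 1.00 on the log2 scale without C17, and just outside it C1qb, a chain of complement C1q, with 0.99. The choice of mice fixed these counts, and nothing is read from them.

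The 3 mice share the direction of the leading genes by definition, but their sizes differed. Among the 88 higher genes the median difference from the other 5 mice was 1.44 in C15, 2.95 in C17 and 1.13 in C18. C17 was the highest of the 3 for 82 of them and C18 the lowest for 67. C17 was above every other mouse of the series for 75. The mean of the other 5 mice lay within the range of the PBS mice for 84 of 88, while for 67 all 3 mice were above every PBS mouse. Counted 1 mouse at a time, 213 genes in C15, 961 in C17 and 100 in C18 were at least 2-fold above the mean of the other 5. In C16, set against the remaining 4, 118 genes were, so C16 stood out as much as C18 by this count.

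**Figure D2:**
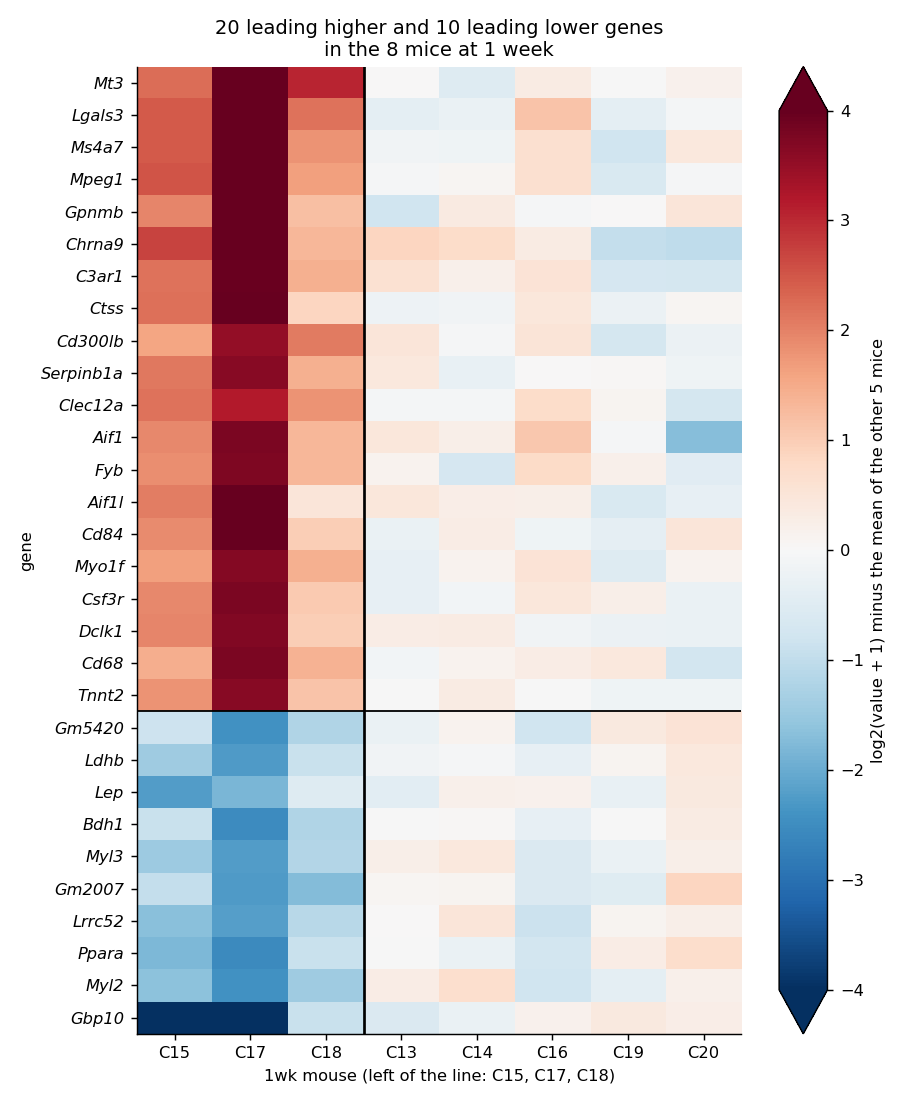
The 20 leading higher and 10 leading lower genes with the largest differences, in the 8 mice at 1 week. Colour is log2(value + 1) minus the mean of C13, C14, C16, C19 and C20, and the scale ends at 4 in each direction: C17 is darkest in most rows, and C18 is palest of the 3 for most of the higher genes.

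Macrophage genes were the list with the most leading members, 15 of the 88, while 27 of the 88 were on any list. Of 27 measured macrophage genes 24 were higher in all 3 mice than in all 5, against 6.28% of all genes. The median difference was 1.72, and 1.09 without C17, against a median of 0.00 over all genes. Averaged over the list as the log2 difference from the PBS mean, the value was 1.53 in C15, 3.23 in C17 and 1.01 in C18. In the other mice it was -0.05 in C13, 0.06 in C14, 0.54 in C16, -0.10 in C19 and -0.05 in C20. The member nearest to the boundary was thus C18 and the nearest mouse outside it C16. Spp1, Lgals3 and other genes of this list were used in the choice, so these values describe the choice.

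Surface receptors of myeloid cells stood high among the leading genes. C3ar1, the receptor of the complement fragment C3a, was 93.9 in C15, 327.5 in C17 and 55.6 in C18 and 12.0 to 31.4 in the other 5. Ms4a7, a membrane protein of macrophages, was 46.3, 217.9 and 29.3 in C15, C17 and C18 and 4.02 to 12.6 in the others. Clec12a, an inhibitory lectin receptor of myeloid cells, was 33.9, 69.4 and 25.8 and 3.79 to 12.0 in the others. For all of these genes the 3 mice lay above the other 5 in the same order, C17, then C15, then C18. Cd300lb, an activating receptor of myeloid cells, was 20.3 in C15, 80.0 in C17 and 29.3 in C18 and 3.35 to 9.18 in the others. Cd84, a self-binding receptor of leukocytes, was 41.4, 182.5 and 21.7 and 8.04 to 15.1 in the others. Csf3r, the receptor for granulocyte colony-stimulating factor, was 23.8, 87.1 and 12.6 and 4.25 to 8.03 in the others. It is a gene of neutrophils as well as of monocytes.

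Genes of engulfment and of the lysosome were also among the leading ones. Mpeg1, a pore-forming protein of phagocytes, was 267.6 in C15, 1132 in C17 and 147.7 in C18 and 30.1 to 72.8 in the other mice. Ctss, the lysosomal protease cathepsin S, was 447.1, 2027 and 175.0 and 81.0 to 132.5 in the others. Cd68, a lysosomal glycoprotein used to stain macrophages, was 96.1, 477.7 and 91.6 and 20.2 to 46.2 in the others. The PBS mice C2, at 97.8, and C10, at 148.5, were above C15 and C18 for Cd68. C15 and C18 were nearly equal for Cd68, whereas C15 was well above C18 for Mpeg1 and Ctss. Gpnmb, a glycoprotein of lipid-laden macrophages, was 137.1, 1045 and 80.9 and 19.1 to 47.96 in the others. Of the list of 22 lysosome and phagocytosis genes 10 were higher in all 3 mice, against 6.28% of all genes. The median difference was 0.64, and 0.27 without C17. Lamp1, a lysosomal membrane protein, was 7073 to 7760 in the 3 mice and 6306 to 7635 in the others, and the groups overlapped.

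Signalling and cytoskeletal genes of leukocytes followed. Aif1, which encodes the macrophage protein Iba1, was 26.9 in C15, 98.6 in C17 and 17.2 in C18 and 1.26 to 14.3 in the others. Fyb, an adaptor of leukocyte integrin signalling, was 51.3, 191.1 and 34.97 and 8.09 to 23.6 in the others. Myo1f, a leukocyte myosin, was 45.0, 186.9 and 38.4 and 9.38 to 20.6 in the others. Serpinb1a, an inhibitor of neutrophil proteases, was 249.5, 724.6 and 155.9 and 46.9 to 77.1 in the others. The 4 genes had C17 highest and C18 lowest of the 3, with no overlap. Of 21 measured genes for chemokines, cytokines and their receptors 10 were higher in all 3 mice, against 6.28% of all genes. Their median difference was 0.78, and 0.41 without C17.

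The median differences of matrix lists were smaller than that of the macrophage list. Of 18 measured genes of fibrillar collagens and their crosslinking 7 were higher in all 3 mice, with a median difference of 0.78, and 0.47 without C17, and 0 were leading. The share of separating genes over all genes was 6.28%. Col1a1, a chain of type I collagen, was 1337 in C15, 2819 in C17 and 1415 in C18. In the other mice it was 960 in C13, 1225 in C14, 644 in C16, 593 in C19 and 729 in C20, so C14 came close to C15. Col3a1, the chain of type III collagen, was 3772, 7148 and 3665 in C15, C17 and C18 and 1478 to 2753 in the others. Without C17 the difference was 0.78 for Col1a1 and 0.81 for Col3a1, short of 2-fold. The list value was 0.61 in C18 and 0.58 in C14, so the 3 mice and C14 nearly met for these genes.

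In other matrix lists the share of genes higher in all 3 mice was 10.5% to 21.4%, against 6.28% of all genes. Of 15 basement membrane genes 3 were higher in all 3 mice (Lama4, Lamc1 and Sparc), of 19 matricellular genes and proteoglycans 2 (Bgn and Mfap5), a share near that of all genes, and of 14 matrix proteases and inhibitors 3 (Mmp19, Adamts2 and Plau). The median difference was 0.29 for basement membrane, 0.55 for matricellular genes and 0.38 for proteases. Sparc, a collagen-binding protein, was 4333 in C15, 6337 in C17 and 5123 in C18 and 2917 to 4027 in the others. Dcn, which encodes the small proteoglycan decorin, was 4349 to 6042 in the 3 mice and 4070 to 5703 in the others, with full overlap. The 17 genes of fibroblasts and fibro-adipogenic progenitors had a median difference of 0.29, and 3 of them, Cd34, Thy1 and Fap, were higher in all 3 mice. For tendon genes 0 of 5 were, and the list value reached 1.13 in C14. The defining tendon genes Tnmd and Mkx were not among the genes of the table.

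Genes of regenerating muscle were highest in C17. Of 20 measured genes 6 were higher in all 3 mice, against 6.28% of all genes. The median difference was 0.78, and 0.49 without C17. Tnnt2, the cardiac and embryonic form of troponin T, was 131.4 in C15, 464.9 in C17 and 83.0 in C18 and 32.8 to 46 in the other mice. Myog, the myogenic factor myogenin, was 533.0, 1669 and 221.0 and 103.5 to 220.3 in the others, so C18 barely passed C14. Outside that list, Chrna9, a nicotinic acetylcholine receptor subunit, was 77.6, 193.1 and 29.3 and 5.05 to 21.3 in the others. Dclk1, a microtubule-associated kinase, was 156.1, 537.8 and 79.9 and 33.4 to 50.6 in the others. Myf6, a myogenic factor of adult fibres, was 1214 in C15, 2880 in C17 and 982 in C18 and 1049 to 1473 in the others, so only C17 was high.

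Mt3 and Mt2, which encode metallothioneins, small proteins that bind zinc and copper, did not behave alike. Mt3 had the largest difference of the leading higher genes. It was 45.0 in C15, 186.9 in C17 and 79.9 in C18, and 9.04 in C13, 5.91 in C14, 11.5 in C16, 8.71 in C19 and 10.1 in C20. No mouse of the other groups was above C15, and the highest of them was at 27.2. Mt2 was 254.4 in C15, 3626 in C17 and 158.3 in C18, and in the other mice 109 in C13, 160 in C14, 149 in C16, 280 in C19 and 1135 in C20. C17 and C20 were the high mice for Mt2, and the groups overlapped. The Mt2 difference was 1.12 with C17 and -0.27 without it.

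C16 shared some of the pattern with the 3 mice. For all 12 measured proliferation genes it was the highest of the other 5, and 0 of 12 separated the groups. The proliferation list value was 0.91 in C15, 2.16 in C17, 0.27 in C18 and 1.019 in C16, and -0.18 to -0.03 in the remaining 4. Mki67, a protein of dividing cells chosen as an example after its values were seen, was 84.7 in C15, 394.2 in C17, 15.2 in C18 and 79.7 in C16, and 3.19 to 6.94 in the remaining 4. C16 was also the highest of the 5 for 19 of 27 macrophage genes and the nearest to the 3 for 42 of the 88 leading higher genes. For fibrillar collagens it was the highest of the 5 for 3 of 18. Without C16, 306 genes were at least 2-fold higher and 59 lower in the 3 mice.

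Among the lower genes, those of slow and oxidative fibres were the most prominent. All 10 slow-fibre genes had a negative difference, with a median of -1.31, and -1.33 without C17. Myl2, the slow myosin light chain, was 1357 in C15, 793 in C17 and 1575 in C18, against 5224 in C13, 6721 in C14, 2410 in C16, 3232 in C19 and 4845 in C20. Myl3, another slow myosin light chain, was 1965, 1137 and 2402 in the 3 mice and 3571 to 7157 in the others. Both separated the groups, with C16 lowest of the others. Atp2a2, the calcium pump of slow fibres, was 1928 to 2144 in the 3 mice, 2429 in C16 and 5581 to 6577 in C13, C14, C19 and C20. Myh7, the slow myosin heavy chain, was 2024 in C15, 1335 in C17 and 2711 in C18 but 1750 in C16 and 8855 to 12438 in the remaining 4. Of the 10 genes 3 were lower in all 3 mice, against 5.54% of all genes. C16 was the lowest of the 5 for 9 of 10. The lowest slow-fibre list value of a PBS mouse was -2.73, below -1.09 in C17, so tumor-free mice reached this level as well. How much of the slow part of the muscle each sample held was not tested.

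Of 15 fast-fibre genes 1 separated the groups, Myh2, the myosin heavy chain of fast oxidative fibres, at 12770 in C15, 6310 in C17 and 15974 in C18 and 23059 to 35795 in the others. The fast-fibre median was -0.16. Genes of energy metabolism were lower by smaller steps. Of 33 genes of respiratory complex I, the first proton pump of the mitochondrial chain, 19 were lower in all 3 mice, against 5.54% of all genes, with a median difference of -0.32, and -0.22 without C17. Ndufb9, an accessory subunit, was 4519 in C15, 3682 in C17 and 4640 in C18 and 4937 to 6216 in the others. Ppara, the nuclear receptor that drives fatty acid oxidation, was 164.5, 96.3 and 307.0 and 343.5 to 932.6 in the others. Ldhb, the lactate dehydrogenase subunit of oxidative fibres, was 1347, 750 and 1931 and 2825 to 4792 in the others. C17 was lowest and C18 highest of the 3 for Ppara and Ldhb, the mirror of the higher genes. Bdh1, an enzyme of ketone body use, was 292.5, 93.7 and 235.1 and 432.8 to 681.0 in the others. Lep, the fat-cell hormone leptin, was 6.17, 8.40 and 22.8 and 23.9 to 42.9 in the others. Of 9 adipocyte genes only Lep and Lpl were lower in all 3 mice, and Adipoq was 52.1 to 133.5 in the 3 and 75.5 to 157.0 in the others.

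The genes with the lowest differences also included some of uncertain counting. Gbp10, an interferon-induced GTPase, was 0.0135 in C15, 1.24 in C17 and 19.8 in C18 and 25.3 to 49.7 in the other mice. It belongs to a cluster of near-identical Gbp genes, between which estimated counts can be split, so its values are uncertain. Interferon-gamma genes as a list did not set the 3 mice apart: the list value was -2.03 to -1.34 in the 3 and -2.21 to -1.72 in the others, below the lowest PBS mouse at -0.70. Gbp4, of the same family, was 268.0 in C15, 91.1 in C17 and 113.1 in C18 and 81.5 to 156.9 in the others. Gm2007 shares its place with other predicted genes and is uncertain for the same reason, and no role is given for it, Gm5420 or Lrrc52.

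Markers of other cell types were examined as well. Over all genes, 6.28% were higher in all 3 mice and 5.54% were lower. Of 14 neutrophil markers 5 were measured, and of these only Csf3r was higher in all 3 mice, but all 5 had positive differences, with a median of 1.14, and 0.45 without C17. The neutrophil list value was 1.30 in C15, 3.26 in C17, 0.05 in C18 and 1.15 in C16, so C18 was not high and C16 was. S100a9, a calcium-binding protein abundant in neutrophils, was 33.5 in C15, 44.2 in C17, 6.07 in C18 and 47.02 in C16 and 3.79 to 11.7 in the remaining 4. The defining markers Ly6g, Mpo and Elane and all 14 markers of T, NK and B cells were not among the genes of the table. Of 14 endothelial genes 0 were higher in all 3 mice, with a median difference of 0.07. Of 8 Schwann cell genes 0 were, and C16 was the highest of the 5 for all 8. The 7 erythroid genes all had negative differences, with a median of -0.62. Of 28 genes of the actin cytoskeleton and adhesion 4 were higher in all 3 mice (Tmsb4x, Arpc1b, Coro1a and Itga5), with a median of 0.74, and 0.32 without C17. Of 17 genes of denervation and atrophy 4 were (Myog, Chrna1, Ncam1 and Musk), with a median of 0.27, and -0.10 without C17. Myog, Chrna1 and Ncam1 are also on the list of regenerating muscle and were counted there as well. The lists of glycolysis, immediate early genes, and heat shock and unfolded protein response had medians of -0.27, 0.15 and 0.28 and at most 2 separating genes in a direction. The 30 ribosomal protein genes had a median of 0.18, and 0.07 without C17. C17 had the smallest summed value of all genes in the 1wk group, 9.90 M against at most 13.1 M, and its part in the size of its differences was not tested.

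**Figure D3:**
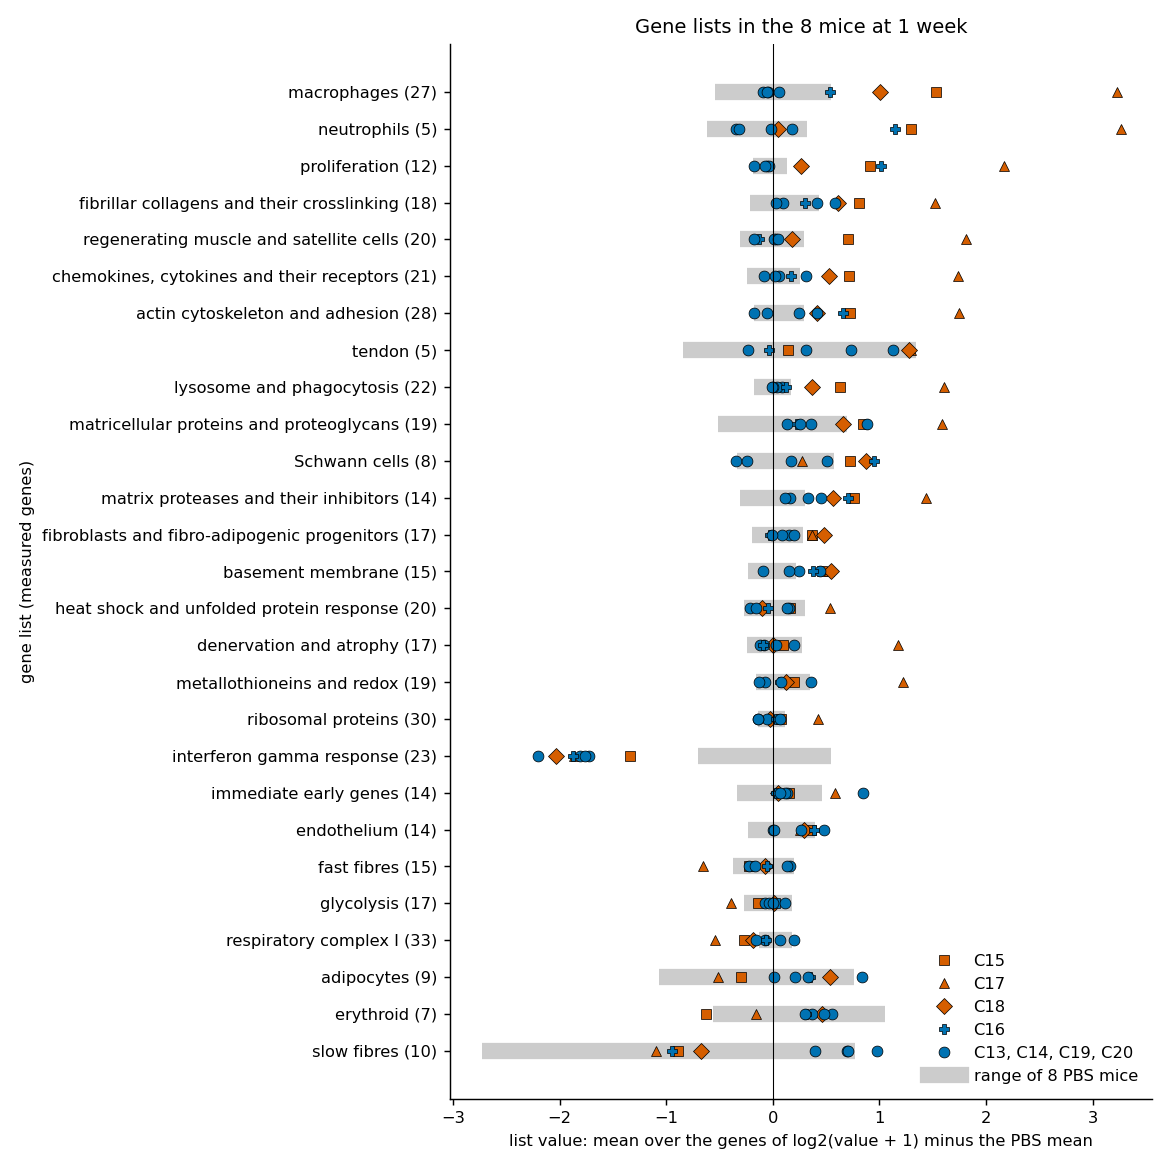
List values of the 8 mice at 1 week for the lists with at least 5 measured genes, as the mean over the genes of log2(value + 1) minus the PBS mean, with grey bars for the range of 8 PBS mice. For macrophage genes the 3 orange mice, at 1.01 to 3.23, lie to the right of every other 1wk mouse, and for slow-fibre genes C16 lies among them.

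The leading genes were then followed in mice of the other groups, which were not fully outside the choice. The limit on the mean value of a leading gene was taken over all mice of the series, and 12378 of 12573 genes passed it. Members and gene lists were also chosen with earlier results of these data known. The counts that follow are therefore not an independent test. PBS, 2wk, LT and HT libraries were fitted without the 1wk libraries, with limma on log2(value + 1) and adjustment over all 12573 genes, and the 3 comparisons share the PBS mice. In HT mice 43 of the 88 leading higher genes rose (48.9%) and 1 fell, against 16% of all genes that rose and 15.6% that fell. Of the 26 leading lower genes 6 fell (23.1%) and 0 rose. In LT mice 1 of the leading higher genes, Csf2rb, rose and 1 of the leading lower genes, Gbp6, fell, against 0.247% and 0.35% of all genes. In 2wk mice 0 leading genes passed the limma test in either direction, as for all genes (0% and 0%). At an unadjusted p under 0.05 there were 4 of the higher and 2 of the lower genes in 2wk, and 571 of all genes. With a weight for each library the limma fit called 2 leading genes higher and 1 lower in 2wk. The median log2 fold change of the 88 genes was 0.70 in HT, 0.24 in LT and 0.04 in 2wk mice.

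**Figure D4:**
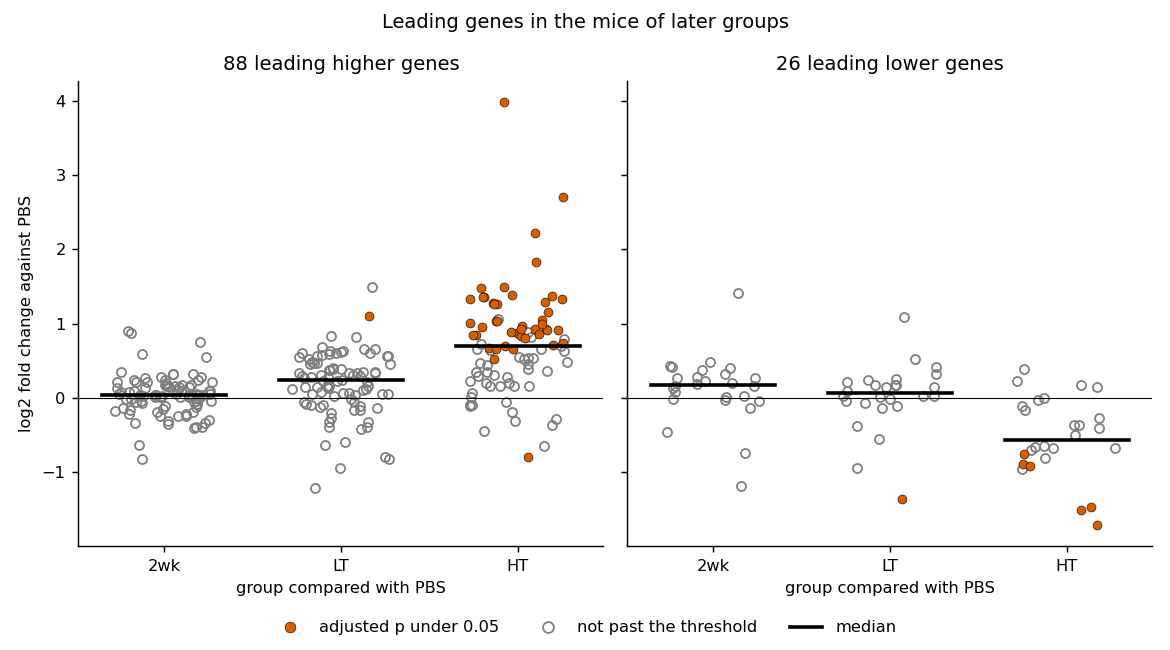
Log2 fold change against PBS of the 88 leading higher and 26 leading lower genes in 2wk, LT and HT mice, from a limma fit without the 1wk mice. Filled points passed an adjusted p of 0.05 and bars are medians: 43 of the higher genes rose in HT mice, and in 2wk mice 0 genes passed.

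Individual leading genes differed in how far they rose in HT mice. Csf3r was 52.1 to 152.3 in HT and 2.60 to 11.0 in PBS mice (log2 fold change 3.98, standard error 0.38, limma adjusted p = 6.3e-09, n = 8 per group). The groups did not overlap, and the highest HT mice were above C17. Csf2rb, the shared receptor chain for interleukin-3, interleukin-5 and GM-CSF, was named because it was the single rise in LT mice (log2 fold change 1.10, standard error 0.22, limma adjusted p = 0.00988) and rose further in HT (2.698, standard error 0.22, limma adjusted p = 2.51e-10). Mpeg1 was 68.3 to 143.7 in HT and 35.6 to 81.0 in PBS mice, with a small overlap (log2 fold change 1.03, standard error 0.18, limma adjusted p = 9.8e-05). These 3 genes rose in HT under every alternative fit tried, but with the 1wk mice in the fit 0 leading higher genes passed in LT. Chrna9 rose as well, from a median of 22.8 to 51.2 (log2 fold change 1.39, standard error 0.37, limma adjusted p = 0.00476).

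Lgals3 was the only marking gene that rose in HT mice. It was 75.9 to 181.1 in HT and 50.1 to 86.1 in PBS mice (log2 fold change 0.87, standard error 0.18, limma adjusted p = 0.000482), with the highest HT mouse below C15 and C18. With the 1wk mice in the fit the call was lost (limma adjusted p = 0.102). Spp1 had a log2 fold change of 0.75 (standard error 0.41, limma adjusted p = 0.157) and Adam12 of -0.23 (standard error 0.40, limma adjusted p = 0.693). Mt3, first among the leading higher genes, had -0.10 (standard error 0.42, limma adjusted p = 0.873) and Cd68 0.01 (standard error 0.29, limma adjusted p = 0.982). Aif1l, an actin-bundling relative of Aif1, was the 1 leading higher gene that fell, with -0.80 (standard error 0.26, limma adjusted p = 0.0199). The call of Aif1l was lost with only PBS and HT mice in the fit (limma adjusted p = 0.0687), with the 1wk mice in it (0.134) and without HT mouse C54 (0.0613).

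Of 27 macrophage genes 17 rose in HT mice and 0 fell, where 16% of all genes rose and 15.6% fell. Of 22 lysosome and phagocytosis genes 10 rose and 0 fell, of 21 chemokine, cytokine and receptor genes 13 rose and 0 fell, and of 14 endothelial genes 9 rose and 0 fell. Of 18 fibrillar collagen and crosslinking genes 1 rose and 4 fell, the latter a share near that of all genes, and of 17 fibroblast genes 0 rose and 7 fell. Col1a1 had a log2 fold change of -0.88 (standard error 0.36, limma adjusted p = 0.0593). All 33 complex I genes fell, with a median of -0.50, while 0 of 10 slow-fibre genes passed the test. Markers of other blood cells moved with the HT group: all 5 measured neutrophil markers rose, with a list value of 3.62 to 5.66 against 0.05 to 3.26 in the 3 mice, and of 7 erythroid genes 6 rose and 1 fell. S100a9 was 278.7 to 1214 in HT mice and 6.50 to 15.8 in PBS mice. Their part in the rise of the leading genes was not tested, and HT libraries were also the shallower ones.

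The whole 1wk group, the 3 mice included, was compared with PBS. The 1wk mice were younger than the PBS mice, so age and tumor cannot be told apart here. With 8 mice per group and limma, 19 genes rose (0.151%) and 47 fell (0.374%). None of the 88 leading higher genes was among them. At an unadjusted limma p under 0.05 there were 33 of the 88, and 1457 of all 12573 genes. The 88 genes were chosen for high values in 3 of these 8 mice, so nothing is read from the 33. The same choice makes their spread within the 1wk group wide, so nothing is read from the lack of adjusted calls either. Without C15, C17 and C18, 0 genes rose and 39 fell by limma adjusted p, of which 38 were among the 47. The 3 mice were chosen for high values and leaving them out takes the group from 8 to 5 mice, so nothing is read from the loss of rises. Leaving out 1 of C15 or C17 left 5 rises each, and leaving out C18 left 12. Leaving out 1 other mouse left 12 to 48 rises in the 1wk group, so the count of rises was unstable while that of falls stayed at 41 to 45. Without 1 PBS mouse the total of 66 calls became 103 (C4) or 43 (C9). With a weight for each library in the limma fit, 468 genes rose and 261 fell. Of the 47 falls 20 were on the interferon-gamma list, which held 23 measured genes. For matrix, 4 of 15 basement membrane genes rose, Col4a1, Lamb1, Nid1 and Sparc, and 1 of 14 matrix proteases and inhibitors, Plau. Of 18 fibrillar collagen and crosslinking genes 0 rose, and of 19 matricellular genes and proteoglycans 0. The 3 mice picked for matrix genes are part of this comparison, so nothing is read from these rises.

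Whether the marking genes vary together from mouse to mouse was examined in groups other than the one that held C15, C17 and C18. For 4 pairs in 4 groups of 8 mice, 16 correlations of log2(value + 1) were computed with two-sided exact permutation p over 40320 pairings. Of these, 0 passed after adjustment and 2 had an unadjusted Pearson p under 0.05, both in PBS mice. The strongest was Lgals3 with Adam12 in PBS mice, with Pearson r = 0.84 (exact permutation p = 0.00883, adjusted p = 0.141) and Spearman rho = 0.83 (exact permutation p = 0.0154, adjusted p = 0.246), and r = 0.60 without the 2 mice farthest from the median of Lgals3. Spp1 with Lgals3 had r = 0.68 in PBS (exact permutation p = 0.0666, adjusted p = 0.266; rho = 0.67, exact permutation p = 0.0831, adjusted p = 0.443) and 0.31 without the 2 farthest mice. In HT mice the same pair had r = 0.52 (exact permutation p = 0.197, adjusted p = 0.45; rho = 0.24, exact permutation p = 0.582, adjusted p = 0.977) and -0.35 without them. Over all 16 pairs r ranged from -0.28 to 0.84.

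Promoter motifs of the leading genes were counted as a description. RefSeq windows were found for 70 of the 88 higher and 20 of the 26 lower genes. Of 83 windows of higher genes 13.3% held TGANTCA, against 4.44% of 12789 windows of genes in the table and 6.75% of all 32851. GAGGAAG was in 18.1%, against 10.5% and 10.6%, and CAGCTG in 14.5%, against 12.5% and 13%. Of 26 windows of lower genes 0 held TGANTCA, 0 held GAGGAAG and 2 held CAGCTG. Spi1, which encodes PU.1, was itself a leading gene outside the named set, at 48.5 in C15, 121.5 in C17 and 31.9 in C18 and 12.8 to 17.4 in the other mice.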

How the data were processed

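The authors extracted RNA from the gastrocnemius, prepared stranded mRNA libraries, read 50 bp single ends, aligned with STAR 2.7.8a, estimated gene counts in Partek and removed genes under 30 reads. The submitters' notes list mm10 and mm39. The deposited table holds a signal per gene and library, which the authors made from estimated counts by DESeq2 median-ratio scaling, so it is normalized: of 502920 values 99.6% were not whole. Deposited comparison columns hold the authors' fold changes and p-values and were not used. Coordinates in the table fitted GRCm39, whereas RefSeq promoters are on GRCm38.p6.

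Members and gene lists were chosen with earlier results of these data known. Values were taken as log2(value + 1). Other groups were tested with limma 3.58.1 (trend, R 4.3.3), adjusted by Benjamini-Hochberg over 12573 genes with a threshold of 0.05, and correlations with exact permutation (Python 3.11.15, numpy 2.4.6, pandas 2.3.3). Scripts were tested on simulated data. Named were the 20 highest and 10 lowest leading genes, the 9 genes Spp1, Lgals3, Adam12, Mt2, Mt3, Col1a1, Col3a1, Cd68 and Gbp4, and up to 4 abundant members of a described list. Members counted by name in a list, and Csf2rb, Gbp6, Spi1, Itgb2, C1qb, Myog and Mki67, were named after their values were seen. Depth was estimated from the step between low values, to which 1 read added 0.422 to 0.734 in PBS, 1wk and 2wk and 1.58 to 3.37 in LT and HT libraries. Limma p-values measure the spread between mice of 1 cohort. Alternatives were another pseudocount, filter or scaling, library weights, other groups in the fit and leaving out mice.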

Additional observations from a re-analysis of the deposited data

Results flagged for a closer look

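For 9 genes chosen for naming, Spp1, Lgals3 and Gbp4 among them, 45 sets of 8 mice (gene and group) were examined for a mouse far from the others, and 1 was found: Gbp4, an interferon-induced GTPase, was 868.3 in LT mouse C44, and on the log2(value + 1) scale the gap to the next mouse was 0.625 of the range of the group. Chance gives about 1 such mouse in 20 sets. The 45 sets included those of the 1wk mice, with C15, C17 and C18 among them, and no 1wk mouse was flagged. The 3 mice were chosen on such values, so nothing is read from that.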

How the results depend on the processing

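No paired analysis was possible because mouse numbers are not shared between groups. With a mean value of at least 50 in place of 10, 79 genes were at least 2-fold higher and 26 lower in the 3 mice, and leaving out 1 mouse gave 97 (without C17) to 440 (without C18) higher and 31 to 85 lower. A pseudocount of 0.5 or 5, no filter and quantile normalization stayed within 1.5 times, and 84 of 88 higher and 25 of 26 lower leading genes kept 2-fold under quantile normalization, which moved the median of all genes to -0.03. The Mt2 difference was -0.27 without C17 and 1.99 without C18. Calls for 1wk against PBS were 729 with library weights and 39 without the 3 mice, and 43 (without PBS C9) to 103 (without PBS C4) without 1 mouse. Leading genes that rose in LT were 2 under quantile normalization, 4 with library weights, 2 with PBS and LT alone and 0 with all 5 groups in the fit, and 1 to 3 without 1 mouse. Those that fell in LT were 0 to 1. With library weights 2 rose and 1 fell in 2wk. Those that rose in HT were 30 to 51 over the alternatives and those that fell were 4 with PBS and HT alone and 5 to 12 (12 without PBS C8) without 1 mouse. With all 5 groups in the fit the HT calls of Lgals3, Gpnmb, C3ar1, Ctss, Aif1l and Ppara were lost, at limma adjusted p of 0.102, 0.0626, 0.179, 0.0591, 0.134 and 0.0793. Over the named genes, 788 of 874 alternative HT values kept their call, 33 lost it, 25 gained it and 28 with no call changed sign. Correlations past adjustment were 0 to 1 without 1 mouse, the 1 being Lgals3 with Adam12 without PBS C6 (r = 0.95) or Spp1 with Adam12 without PBS C10 (r = 0.94). The cause of these shifts was not tested. Depth limits LT and HT values of genes near 10.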
